A study of Mus musculus with 6 samples.

Results

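Vascular calcification is the deposition of calcium phosphate in the vessel wall, and 10 genes known for holding it back or for driving cells of the wall towards bone and cartilage programmes were followed here in Nt5e knock-out and wild-type cells. The 10 genes were chosen by name and all were present among the 25683 genes of the deposited table. Positions below are on GRCm38, as deposited. The genes are Alpl, Enpp1 and Phex, which act on pyrophosphate and phosphate balance, Mgp and Tnfrsf11b, which encode secreted inhibitors, and the transcription factors Runx1, Runx2, Sox9, Msx1 and Msx2. All 10 passed the filter on low counts and were among the 12660 genes tested. The cells were a primary line from mouse aorta, labelled vascular smooth muscle, with 3 libraries of genotype Nt5e Knock-out (libraries 1 to 3, here K1, K2 and K3) and 3 of genotype Nt5e-WT (libraries 4 to 6, here W4, W5 and W6). All had grown in 10% serum and were then held for 48 h in 0.5% serum, which the labels call SMC differentiation media. The sources used here do not give strain, age or how the knock-out was made, and whether libraries of a genotype come from separate animals or cultures is not stated in those sources, so each p-value reflects the spread among these libraries alone, and that spread may be technical.

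Calcium phosphate crystals are held back in soft tissue mainly by pyrophosphate. ENPP1 makes pyrophosphate and AMP from extracellular ATP, the transporter ANK (ANKH in humans) brings pyrophosphate or its precursor out of the cell, and tissue-nonspecific alkaline phosphatase, the product of Alpl, hydrolyses it. CD73, the product of Nt5e, acts on the AMP left by ENPP1 and releases adenosine, and inherited loss of CD73 in people leads to calcified arteries of the legs. In calcifying vessels smooth muscle cells can take on RUNX2 and MSX2, factors of osteoblasts, and SOX9, the factor of chondrocytes.

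K1 stood apart from K2 and K3, and this touches most results. The biological coefficient of variation, the spread between libraries beyond counting noise, was 3.66% between K2 and K3 and 3.49% between W4 and W6, against 44.6% for K1 with K2, 45.1% for K1 with K3, 15% for W5 with W4 and 15.7% for W5 with W6. K1 was about as far from the wild type, at 44.2%, 48% and 43.7% with W4, W5 and W6, as from its own genotype, so each comparison of 3 with 3 libraries holds this spread in its error. The sample titles give K1 and K2 the same first number, and likewise W5 and W6. The nearly identical pairs, K2 with K3 and W4 with W6, differ in it. What this first number marks is not given in the labels. Exon reads per library ran from 19919095 to 23669252. Nt5e was at 27.4, 28.3 and 22.5 CPM (reads scaled to a common library size) in W4, W5 and W6 and at 0.952, 0.0471 and 0.106 CPM in K1, K2 and K3 (-6.06 ± 0.82 on the log2 scale, edgeR adjusted p = 0.00577). Of the 12 smooth muscle markers examined 8 were tested, and 1 rose and 1 fell (25%, beside 27.8% of all tested genes). These were Smtn (0.55 on the log2 scale, edgeR adjusted p = 0.0296) and Cnn1 (-2.45, 0.0246), named after their values were seen. Kcnmb1 had 0 reads, which over all libraries allows up to 0.0228 CPM. Myh11, Des and Myocd, also named after their values were seen, were too low to be tested. Myh11 had 3, 3 and 1 reads in W4, W5 and W6 and 5, 54 and 67 in K1, K2 and K3. The summed level of the 12 was 919.6 to 1096 CPM in the wild type and 983 to 2516 CPM in the knock-out, most of it Cald1 and Acta2. Of the 12 mesothelial markers 11 were tested and 10 fell (beside 13.7% of all tested genes), with a sum of 3375 to 3635 CPM in the wild type and 129 to 787 CPM in the knock-out, led by Msln and Lrrn4. The exception was Gpm6a, named after its values were seen, at 257, 223 and 279 CPM in W4, W5 and W6 and 583, 45.1 and 46.4 CPM in K1, K2 and K3. Fibroblast markers were abundant in both, with a sum of 7755 to 9360.5 CPM in the wild type and 10136, 18435 and 19863 CPM in K1, K2 and K3. Of the 10, 3 rose (beside 14.1%). Fn1 and Col3a1 led. Fn1 was at 4434, 3134 and 4623 CPM in W4, W5 and W6 and 5688, 6541 and 6612 CPM in K1, K2 and K3. Col3a1 was at 939, 754 and 1005 CPM against 161, 6244 and 7291 CPM, so K1 lay below the wild type and K2 and K3 above it. Of 10 leukocyte markers 4 were tested, 2 fell and 1 rose, with a sum of 60.6 to 70.6 CPM in the wild type and 22 to 25.3 CPM in the knock-out. Cd14 led, at 63.4, 59.6 and 56.1 CPM against 15.8, 8.48 and 8.41 CPM (edgeR adjusted p = 0.00341), followed by Lyz2, which rose, and Ptprc, Adgre1 and Itgam had 0 reads. The part of these differences in the results that follow was not tested, and in bulk RNA fewer cells of a type and less RNA per cell cannot be told apart.

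The paralogues Msx1 and Msx2, and Runx1 and Runx2, are compared within each library further on, and their sequences are given first to show how far reads can tell them apart. The 120 bases of coding sequence most alike in each pair are printed from the GENCODE M21 transcripts (GRCm38), with capitals at the bases that differ. In Msx1 (bases 547 to 666 of 909 coding bases) and Msx2 (bases 457 to 576 of 801) they lie in the homeobox, and in Runx1 (bases 181 to 300 of 1395) and Runx2 (bases 517 to 636 of 1788) in the Runt domain.
Msx1: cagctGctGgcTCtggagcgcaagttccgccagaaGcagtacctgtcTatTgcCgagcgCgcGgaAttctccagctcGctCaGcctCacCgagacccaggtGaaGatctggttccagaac
Msx2: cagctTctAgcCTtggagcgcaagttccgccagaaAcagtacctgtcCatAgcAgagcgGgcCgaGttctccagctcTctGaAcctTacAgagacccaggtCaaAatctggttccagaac
Runx1: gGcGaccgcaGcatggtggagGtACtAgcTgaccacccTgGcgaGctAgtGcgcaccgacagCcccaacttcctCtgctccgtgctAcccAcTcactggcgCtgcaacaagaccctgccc
Runx2: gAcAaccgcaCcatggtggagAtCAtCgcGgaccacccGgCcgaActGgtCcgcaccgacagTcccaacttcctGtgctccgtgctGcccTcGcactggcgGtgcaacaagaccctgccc
The Msx stretches were identical at 102 of 120 bases (85%) and the Runx stretches at 101 (84.2%). The longest run of bases shared anywhere in the coding sequences was 22 for the Msx pair and 26 for the Runx pair. For all 10 genes the number of uniquely mapped exon reads equalled the total in every library, so none of their reads was shared with another place in the genome.

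Between genotypes, 3 of the 10 genes passed the test: Sox9 and Phex rose and Alpl fell in the knock-out by the quasi-likelihood test of edgeR, at a Benjamini-Hochberg adjusted p under 0.05 over all tested genes. Among all 12660 tested genes 27.8% passed, so 3 of 10 is near the background. The 10 genes had a median log2 fold change (knock-out minus wild type) of 0.24, beside 0.02 for all tested genes. All 3 knock-out values lay on the same side of all 3 wild-type values for 6 genes, higher for Sox9 and Phex and lower for Alpl, Mgp, Runx1 and Msx2, while 49.7% of tested genes were parted in this way. Other tools called Alpl and Sox9 too, beside Mgp, Runx2 and Phex in DESeq2 (5 of 10, with 36.8% of all genes) and beside Mgp and Msx2 in limma-voom (4 of 10, with 28.2%). Without the filter on low counts the same 3 genes passed (with 19.9% of all genes). With the nearly identical K2 and K3 summed, and W4 and W6 summed, edgeR called 0 of the 10 and 17 of 13041 genes (0.13%). Without W4 it called 0 of the 10 and 8.71% of all genes.

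**Figure D1:**
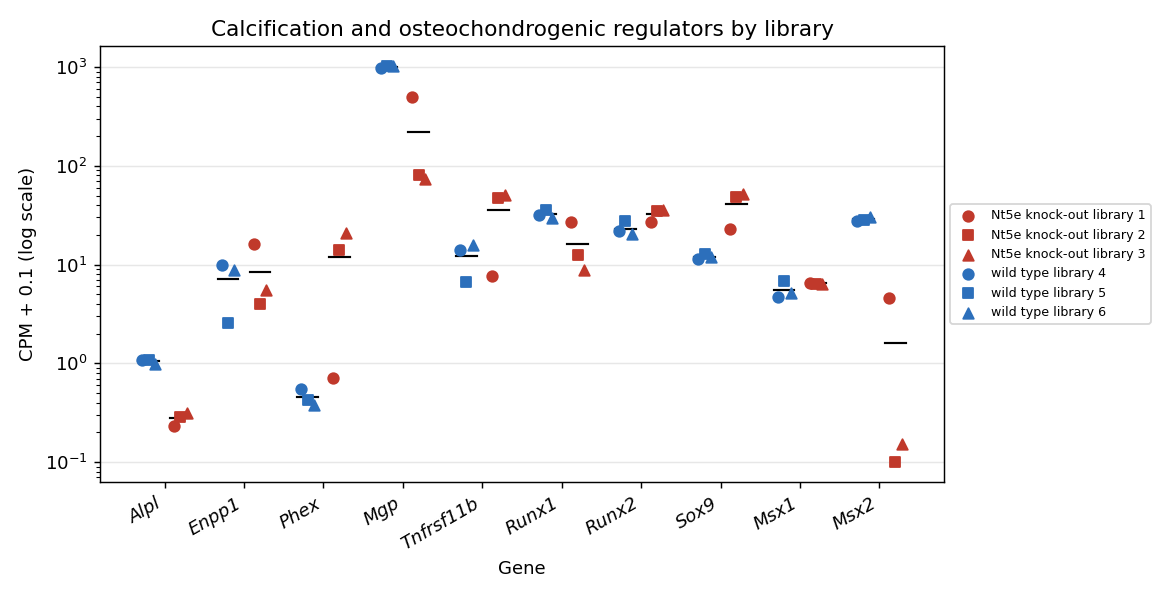
Level of the 10 genes in each library, as CPM + 0.1 on a log axis, with 1 point per library (red for Nt5e knock-out libraries 1 to 3, blue for wild-type libraries 4 to 6) and a black bar at each genotype's mean. Mgp lies between 986 and 1023 CPM in the wild type, Alpl below 1 CPM everywhere, and for Msx2 and Phex knock-out libraries 2 and 3 lie far from library 1.

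Alpl (ENSMUSG00000028766, chr4:137741733-137796384, minus strand), whose enzyme removes pyrophosphate and so favours mineral, fell and was scarce throughout. It had 22, 24 and 19 exon reads in W4, W5 and W6 and 3, 4 and 4 in K1, K2 and K3. In CPM this was 0.981, 0.987 and 0.88 against 0.13, 0.189 and 0.213. All 3 knock-out libraries were low and close to each other, K1 included. The log2 fold change was -2.40 ± 0.36 (SE, n = 3 each; edgeR adjusted p = 0.00775), 5.27-fold lower, on 65 reads against 11. Reads across exon junctions followed, with 45 in the wild type and 5 in the knock-out. The call ended without W4 (edgeR adjusted p = 0.0513) and with the nearly identical libraries summed (0.148).

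Enpp1 (ENSMUSG00000037370, chr10:24637914-24712159, minus strand), the source of pyrophosphate, varied as much within each genotype as between them. It stood at 9.85, 2.43 and 8.66 CPM in W4, W5 and W6 and at 15.9, 3.86 and 5.37 CPM in K1, K2 and K3. The groups overlapped, W5 was lowest and K1 highest. The log2 fold change was 0.27 ± 0.71 (SE, n = 3 each; edgeR adjusted p = 0.801). Its sign turned without K1 (-0.60) and without W5 (-0.14).

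Phex (ENSMUSG00000057457, chrX:157162075-157415312, minus strand), a membrane peptidase known from inherited phosphate wasting and expressed in bone cells, rose, nearly all of it in 2 of 3 libraries. It had 10, 8 and 6 exon reads in W4, W5 and W6 and 14, 294 and 388 in K1, K2 and K3. K1 was just above the wild type, at 0.606 CPM against 0.278 to 0.446, while K2 and K3 reached 13.9 and 20.6 CPM, 39.5 and 58.8 times the wild-type mean. The log2 fold change was 5.03 ± 1.26 (SE, n = 3 each; edgeR adjusted p = 0.0329). Junction reads numbered 6 over the wild type and 4, 104 and 128 in K1, K2 and K3. Intron reads numbered 6, 25 and 5 in W4, W5 and W6 and 1, 3 and 5 in K1, K2 and K3, so that introns held 60% of the few wild-type reads of the gene and 1.28% of the knock-out reads. K1 alone differed from the wild type by 0.78 on the log2 scale (edgeR adjusted p = 0.376), with the lone library assumed to vary like the wild type. The call ended in limma-voom (3.79, adjusted p = 0.346), with the nearly identical libraries summed (4.66, edgeR adjusted p = 0.256) and with a term for the number after the letter p in the titles, whose meaning the labels do not give (3.30, 0.151). It also ended without K2 or K3 or any wild-type library (edgeR adjusted p up to 0.12).

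The upstream sequence is shown for Phex and Alpl, the called genes whose promoters were in the RefSeq table (GRCm38.p6), since they moved in opposite directions. The bases of the 250 before the start that lie outside the deposited gene model are printed 5′ to 3′, 224 for Phex (chrX:157415313-157415536, minus strand) and 250 for Alpl (chr4:137796385-137796634, minus strand). Capitals mark matches to any of 6 motifs searched on both strands, namely TGTGGT for RUNX factors, TAATTG for MSX homeobox factors, ACAATG for SOX factors, GGGCGG for the GC box, TATAAA for the TATA box and the 8-base cAMP response element.
Phex: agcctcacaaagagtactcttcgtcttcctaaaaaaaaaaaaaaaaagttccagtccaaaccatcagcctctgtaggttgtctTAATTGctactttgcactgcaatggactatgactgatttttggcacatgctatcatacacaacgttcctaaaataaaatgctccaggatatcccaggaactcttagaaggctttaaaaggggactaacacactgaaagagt
Alpl: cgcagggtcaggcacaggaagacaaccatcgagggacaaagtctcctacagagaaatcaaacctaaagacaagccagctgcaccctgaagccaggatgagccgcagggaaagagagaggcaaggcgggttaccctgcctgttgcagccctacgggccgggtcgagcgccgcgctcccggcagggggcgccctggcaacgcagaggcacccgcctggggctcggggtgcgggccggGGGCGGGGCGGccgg
Phex had 1 TAATTG, found in 7.17% of 32851 promoters of the same length, and the printed Alpl promoter 2 overlapping GGGCGG, found in 32.7%. GC content over the 250 bases was 39.2% for Phex and 68.4% for the printed Alpl promoter, beside a median of 52.4% over all promoters. Alpl had another promoter in the RefSeq table, which lies inside the deposited gene model and is not printed. That promoter had no GGGCGG, 1 TATAAA (found in 12.4% of promoters) and a GC content of 56%. Of the 10 genes 7 were in the table, and TGTGGT, present in 14% of all promoters, occurred in those of Enpp1 and Runx2.

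Mgp (ENSMUSG00000030218, chr6:136872435-136875823, minus strand), matrix Gla protein, a secreted inhibitor whose loss calcifies the arteries of mice, was the most abundant of the 10 by far. W4, W5 and W6 stood at 986, 1023 and 1022 CPM and K1, K2 and K3 at 502, 80.8 and 73.2 CPM. All 3 knock-out values lay below the wild type, at 49.7%, 8% and 7.24% of its mean. The log2 fold change of -2.21 ± 0.80 (SE, n = 3 each) did not pass (edgeR adjusted p = 0.0903). It passed in limma-voom (-2.82, adjusted p = 0.045) and in DESeq2 (-2.21, adjusted p = 0.0358). K1 alone against the wild type gave -1.01 (edgeR adjusted p = 0.00104, with 37.7% of genes called), and K2 and K3 without K1 gave -3.72 (4.67e-07, with 66.2% called). Intron reads moved with exon reads, from 487, 434 and 458 in W4, W5 and W6 to 158, 46 and 39 in K1, K2 and K3. Per kilobase of exon Mgp was at 1638 ± 34 CPM in the wild type (SD, n = 3), exceeded by 14 of the tested genes, and at 354 ± 398 in the knock-out, exceeded by 145.

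MGP inhibits mineral only after vitamin K-dependent carboxylation, and Ggcx, the carboxylase, rose from 34.2, 36.3 and 35.1 CPM to 45.7, 61.7 and 57 CPM (0.64 ± 0.12 on the log2 scale, edgeR adjusted p = 0.0152). The groups overlapped neither for this enzyme nor for Mgp, which encodes its substrate, as was so for 49.7% of tested genes. Mgp was lower in all 3 knock-out libraries without passing the test. The call for Ggcx ended when some single libraries were left out, as given below.

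Tnfrsf11b (ENSMUSG00000063727, chr15:54250619-54278484, minus strand) encodes osteoprotegerin, the secreted decoy receptor that keeps RANK ligand from its receptor RANK. It stood at 13.9, 6.58 and 15.7 CPM in W4, W5 and W6 and at 7.57, 47.2 and 51 CPM in K1, K2 and K3. K2 and K3 were at 3.92 and 4.23 times the wild-type mean, but K1 lay inside the wild-type range, so the groups overlapped. Its log2 difference of 1.55 ± 0.73 (SE, n = 3 each) did not pass (edgeR adjusted p = 0.161), and it was -0.67 for K1 alone (0.344) and 2.03 without K1 (0.00133, with 66.2% of genes called). RANK ligand itself, Tnfsf11, had 117 reads in all in the wild type and none in K1, K2 or K3, so it was at least 36-fold lower with 3 reads assumed for the knock-out group, a bound for counting error only (edgeR adjusted p = 0.012). Its wild-type level was low, at 1.65, 2.51 and 0.88 CPM. Tnfrsf11a, the gene of RANK, named after its values were seen, had 651 reads over the wild-type and 47 over the knock-out libraries and did not pass (-3.77 on the log2 scale, edgeR adjusted p = 0.0969). TRAIL, the other ligand of osteoprotegerin (Tnfsf10), had 0 reads over the wild-type and 18 over the knock-out libraries and was too low to be tested.

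**Figure D2:**
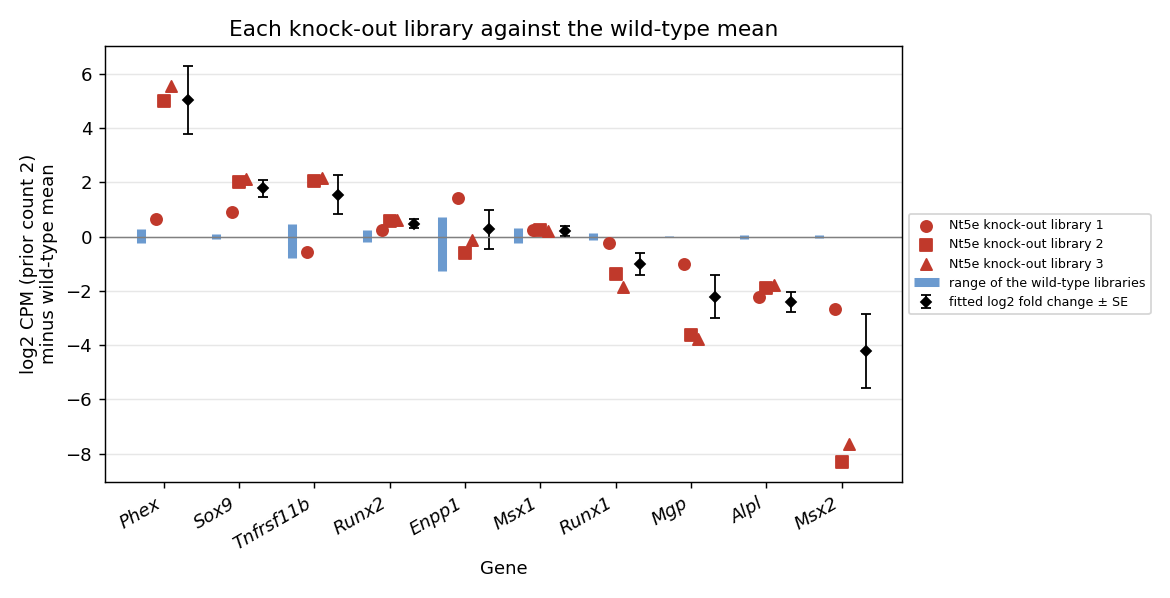
Difference of each knock-out library from the wild-type mean in log2 CPM (prior count 2) for the 10 genes, with the range of the wild-type libraries as a blue bar and the fitted log2 fold change ± SE as a black diamond. Alpl and Msx1 have the 3 knock-out libraries close together, whereas for Phex, Mgp, Msx2, Tnfrsf11b, Runx1, Sox9 and Runx2 library 1 lies nearer to the wild type than libraries 2 and 3.

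Sox9 (ENSMUSG00000000567, chr11:112782224-112787760, plus strand), the transcription factor that starts cartilage formation, rose in every knock-out library. It stood at 11.2, 12.8 and 11.9 CPM in W4, W5 and W6 and at 22.7, 48.7 and 52.2 CPM in K1, K2 and K3. The groups were well apart, with K1 at 1.90 times and K2 and K3 at 4.07 and 4.36 times the wild-type mean. This log2 fold change was 1.78 ± 0.32 (SE, n = 3 each; edgeR adjusted p = 0.0127), and K1 alone gave 0.93. The call ended without W4, W5 or W6 (edgeR adjusted p of 0.0662, 0.0525 and 0.0603) and with the nearly identical libraries summed (0.186). Sox9 lies far from other tested genes on chromosome 11, 1705 kb after Kcnj2 and 457 kb before Slc39a11, and both of these fell (-4.30 ± 0.85 and -1.10 ± 0.13 on the log2 scale, edgeR adjusted p = 0.0169 and 0.00416). The call for Kcnj2 ended without K2, K3, W4 or W6 (edgeR adjusted p of 0.0525 to 0.0763).

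Runx2 (ENSMUSG00000039153, chr17:44495987-44814797, minus strand), the factor that osteoblasts require, was expressed in all libraries. It stood at 21.7, 27.3 and 20.1 CPM in W4, W5 and W6 and at 26.9, 34.4 and 35.4 CPM in K1, K2 and K3. K1 lay inside the wild-type range and K2 and K3 were above it. Its log2 difference of 0.48 ± 0.16 (SE, n = 3 each) did not pass (edgeR adjusted p = 0.0768). It did in DESeq2 (0.48, adjusted p = 0.0456) and without K1 (0.59, edgeR adjusted p = 0.00742, with 66.2% of genes called). Supt3 overlaps Runx2 on the opposite strand, and as the handling of strand is not given in the sources used here, a part of the Runx2 reads is uncertain. Supt3 had 300, 343 and 274 reads in W4, W5 and W6 and 383, 319 and 255 in K1, K2 and K3.

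Runx1 (ENSMUSG00000022952, chr16:92601466-92826149, minus strand), its paralogue best known from blood cells, lay lower in the knock-out. It stood at 31.4, 35.7 and 29.6 CPM in W4, W5 and W6 and at 27, 12.3 and 8.78 CPM in K1, K2 and K3. The groups did not overlap, but K1 was at 83.7% of the wild-type mean and K2 and K3 at 38.1% and 27.2%. This log2 fold change of -1.01 ± 0.41 (SE, n = 3 each) did not pass (edgeR adjusted p = 0.12). It did without K1 (-1.62, edgeR adjusted p = 2.19e-04, with 66.2% of genes called). Per exon length the ratio of Runx2 to Runx1 reads was 0.65, 0.721 and 0.639 in W4, W5 and W6 and 0.939, 2.63 and 3.8 in K1, K2 and K3. Runx1 was thus the more abundant of the pair in the wild type, and Runx2 in K2 and K3. In K1 they were nearly equal, with 624 exon reads of Runx1 and 622 of Runx2. Cbfb, the shared partner subunit of both factors, was at 72.9, 74 and 75.3 CPM in the wild type and 87, 72.7 and 76.7 CPM in the knock-out (0.09 ± 0.09 on the log2 scale, edgeR adjusted p = 0.47), a difference whose sign turned (-0.00) with scaling by total counts.

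Msx2 (ENSMUSG00000021469, chr13:53466884-53473074, minus strand), a homeobox factor of bone and tooth linked to vascular calcification, ranged from 0 to 691 reads. It had 622, 691 and 655 exon reads in W4, W5 and W6 and 103, 0 and 1 in K1, K2 and K3. The 0 reads of K2 allow up to 0.141 CPM, which is 0.49% of the wild-type mean of 28.8 CPM, and K1 was at 15.5% of it. All knock-out libraries lay far below the wild type, yet the log2 fold change of -4.22 ± 1.37 (SE, n = 3 each) did not pass (edgeR adjusted p = 0.0682). It passed in limma-voom (-7.04, adjusted p = 0.0155) but not in DESeq2 (-4.26, adjusted p = 0.0833). K1 alone against the wild type gave -2.69. K2 and K3 without K1 gave -9.88 (edgeR adjusted p = 1.68e-06, with 66.2% of genes called). The size of that value rests on the 0 and 1 reads of K2 and K3, which are nearly identical libraries. The summed mesothelial markers were also highest in K1 among the knock-out libraries, at 787, 134 and 129 CPM in K1, K2 and K3, with 583 CPM of the K1 sum from Gpm6a. Their part in the values of Msx2 was not tested. Junction reads numbered 76, 102 and 82 in W4, W5 and W6 and 16, 0 and 0 in K1, K2 and K3, and intron reads 28 over the wild type and 1 over the knock-out.

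Msx1 (ENSMUSG00000048450, chr5:37820485-37824583, minus strand), its paralogue, had no such gap between genotypes, and the difference between the paralogues was not tested. It stood at 4.59, 6.66 and 5.05 CPM in W4, W5 and W6 and at 6.41, 6.32 and 6.28 CPM in K1, K2 and K3. The knock-out values lay inside the wild-type range, and the log2 fold change was 0.22 ± 0.19 (SE, n = 3 each; edgeR adjusted p = 0.417). Per exon length, Msx2 reads were 4.76, 3.36 and 4.74 times those of Msx1 in W4, W5 and W6, and 0.549, 0 and 0.00669 times in K1, K2 and K3.

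**Figure D3:**
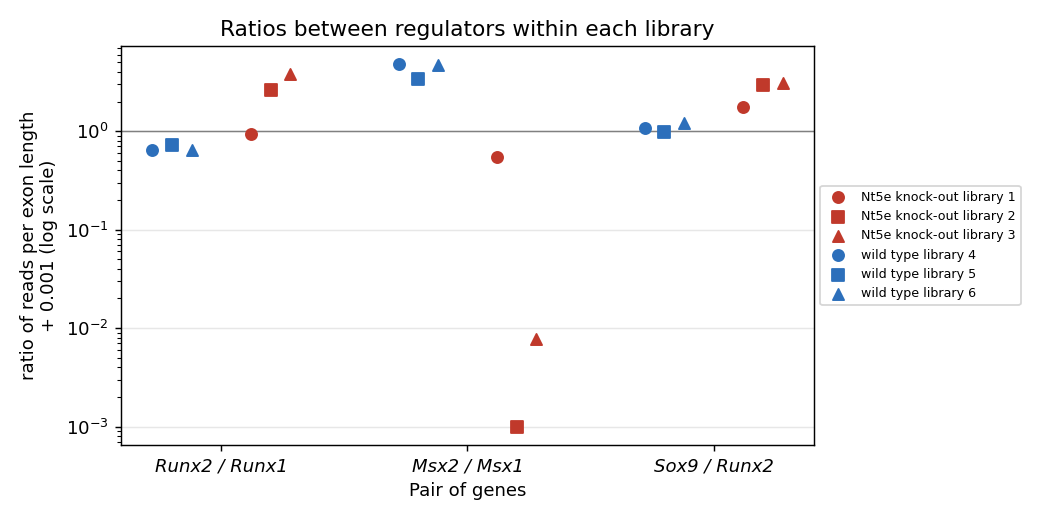
Ratio of reads per exon length between pairs of transcription factor genes in each library, plus 0.001, on a log axis, with the line at 1 marking equal levels. Runx2 exceeds Runx1 in knock-out libraries 2 and 3, Msx2 exceeds Msx1 in the wild type alone, and the knock-out libraries have the highest Sox9 to Runx2 ratios.

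The order of levels per kilobase of exon changed with these shifts. In the wild type Mgp led, followed by Msx2 at 11.8 ± 0.552 CPM per kilobase (SD, n = 3), then Tnfrsf11b at 4.28 ± 1.71 and Runx1 at 4.0 ± 0.389, which did not differ beyond their spread. Sox9 (2.89 ± 0.189), Msx1 (2.81 ± 0.561) and Runx2 (2.69 ± 0.443) formed a group within their spread, and Enpp1 (1.03 ± 0.588), Alpl (0.339 ± 0.0214) and Phex (0.0558 ± 0.0137) came last. In K2 and K3 Mgp still led, at 131 and 119 CPM per kilobase, followed by Tnfrsf11b at 16.8 and 18.1 and Sox9 at 11.8 and 12.6, while Msx2 was last. In K1 the order was Mgp, Sox9, Runx1, Msx1, Runx2, Tnfrsf11b, Enpp1, Msx2, Phex and Alpl. There Runx1, Msx1 and Runx2 were close, at 3.35, 3.31 and 3.14 CPM per kilobase. Sox9 reads per exon length were 1.07, 0.97 and 1.22 times those of Runx2 in W4, W5 and W6 and 1.75, 2.94 and 3.05 times in K1, K2 and K3.

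For each of the 10 genes the tested gene with the most similar profile over the 6 libraries was sought, by the root mean square difference in log2 CPM after centring. The closest matches were Cand2 for Msx1 (0.0484), Fyn for Sox9 (0.0504) and Cd9 for Runx2 (0.0619), and the loosest Klf12 for Phex (0.424) and Mpzl2 for Msx2 (0.378). Pdpn, podoplanin, came closest to Alpl (0.094) and fell from 307, 349 and 292 CPM to 68.7, 90.6 and 82.3 CPM. Mpzl2 went from 111, 115 and 111 CPM to 28, 0.424 and 0.319 CPM, so K1 lay between the wild type and K2 and K3 as it did for Msx2. Rab3b for Mgp (0.104), Shb for Runx1 (0.115), Ulbp1 for Tnfrsf11b (0.237) and Epb41l4b for Enpp1 (0.315) completed the set.

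Other genes of mineral balance changed in both directions. Of 30 listed genes of calcification inhibition and phosphate or pyrophosphate handling 22 were tested, and 4 rose and 5 fell (40.9%, beside 27.8% of all tested genes), with a median log2 fold change of 0.14. The 5 falls include the targeted Nt5e. Like all lists here, this list was chosen with earlier results of these data known, so its share cannot test an excess over the background. Ank, the pyrophosphate transporter gene, rose alike in all 3 knock-out libraries, from 42.2, 44.6 and 49.5 CPM in W4, W5 and W6 to 172, 174 and 175 CPM (1.94 ± 0.08 on the log2 scale, edgeR adjusted p = 3.17e-04). Anxa6, an annexin of matrix vesicles, rose (0.71 ± 0.09, 0.00489). Spp1, osteopontin, a phosphoprotein that binds mineral, fell from 333, 2315 and 298 CPM to 6.97, 1.98 and 1.38 CPM (-8.14 ± 1.34, 0.00985), and the value was -6.50 without W5 and -9.18 without K1. Fgf23, the bone hormone that lowers blood phosphate, fell from 58.4, 16.9 and 55.6 CPM to 2.21, 0.0471 and 0.106 CPM (-5.72 ± 1.17, 0.0184). The call for Fgf23 ended in limma-voom (adjusted p = 0.077) and without K2, K3, W4 or W6 (edgeR adjusted p of 0.0507 to 0.0785), and without K1 the value was -9.08. The phosphate carrier Slc20a1 was at 11.2, 16.1 and 12.7 CPM in the wild type and 12.2, 17.4 and 16 CPM in K1, K2 and K3, with no call (0.19 ± 0.20, 0.514). The call for Ggcx ended without K3, W4, W5 or W6 (edgeR adjusted p of 0.0565 to 0.0751). With the nearly identical libraries summed, Cdh11, described below, was the sole related gene that passed. Of the genes named after their values were seen, Anxa5 rose (0.60, 0.0154), and Gas6 (-0.55, 0.0375), Bmper (-2.44, 0.00204), a modulator of bone morphogenetic proteins, fell, as did the targeted Nt5e.

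**Figure D4:**
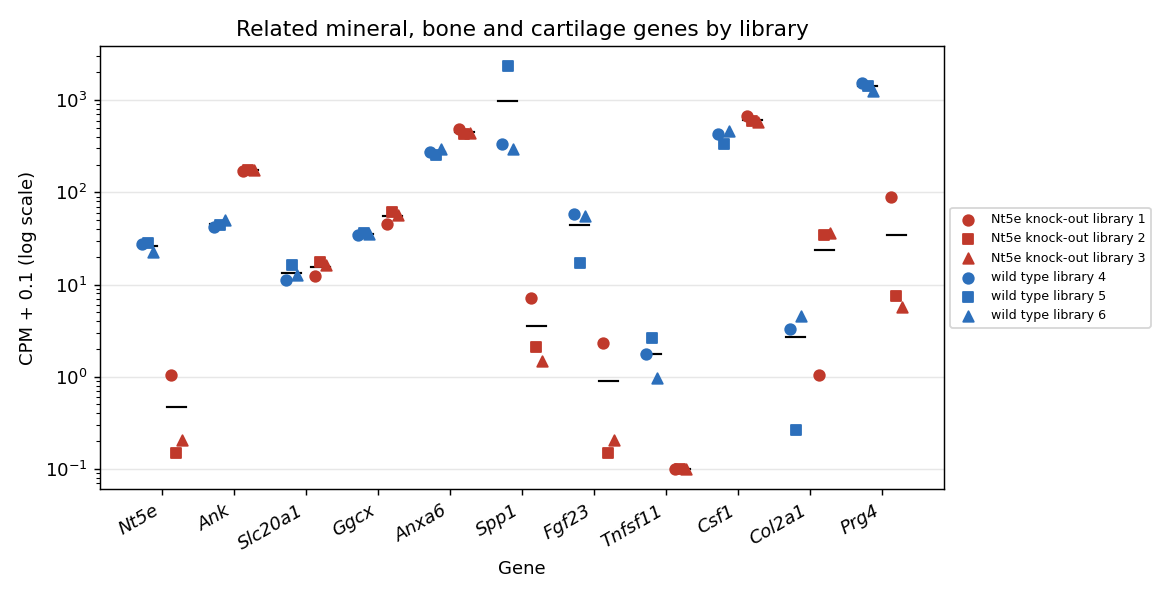
Level of Nt5e and 10 related genes in each library, as CPM + 0.1 on a log axis, with colours, symbols and mean bars as in the plot of the 10 genes by library. Ank lies near 174 CPM in all knock-out libraries, Spp1, Fgf23, Tnfsf11 and Prg4 lie far lower in the knock-out, and Col2a1 is high in knock-out libraries 2 and 3.

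Some genes of mature bone had few or no reads in both genotypes, while others were expressed. Among 30 osteoblast factors and bone matrix genes 19 were tested, and 3 rose and 2 fell (26.3%, median 0.24). Sp7, the osteoblast factor downstream of RUNX2, had 5 reads over all libraries, Bglap, osteocalcin, had 3, and Ibsp and Bglap2 had 0. Col1a1 was abundant, at 775, 1027 and 819.7 CPM in W4, W5 and W6 and 747, 2090.2 and 2333 CPM in K1, K2 and K3. It did not pass (0.98, edgeR adjusted p = 0.134). Phospho1, named after its values were seen, was at 2.36, 3.41 and 2.32 CPM against 0.822, 3.25 and 1.97 CPM (-0.42, 0.564). Twist2 (3.76 ± 0.81, 0.0214), a repressor of RUNX2 function, Cdh11 (2.90 ± 0.09, 1.25e-04), osteoblast cadherin, and Hdac4 (0.52 ± 0.07, 0.00635) rose, with the log2 fold change, its SE and the adjusted p of edgeR in parentheses. Cdh11 stood at 85.5, 99.7 and 91 CPM in the wild type and 691, 662 and 709.9 CPM in the knock-out, with K1 among the others. The call for Twist2 ended in limma-voom (adjusted p = 0.077), with any 1 library other than K1 left out (edgeR adjusted p of 0.0633 to 0.0813) and for K1 alone (1.73, 0.0708). Mmp13, a collagenase of bone and cartilage, fell from 11.1, 48.5 and 11.5 CPM to 0.996, 1.74 and 1.44 CPM (-4.09 ± 0.73, 0.0126). W5 was high, and without it the value was -3.02, while the call ended in limma-voom (adjusted p = 0.0876), without K3 (edgeR adjusted p = 0.0528) and for K1 alone (-4.57, 0.0563). Tcf7, a factor of Wnt signalling, fell from 5.13, 4.11 and 4.4 CPM to 2.29, 1.13 and 0.904 CPM (-1.65 ± 0.39, 0.0287), a call that ended with any 1 library other than K1 left out (edgeR adjusted p of 0.0774 to 0.108).

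Most cartilage genes were too low to be tested. Of 30 listed genes 13 were tested, and 2 rose and 1 fell (23.1%, median 0.24), and Acan, Col9a1, Matn1 and Hapln1 had 0 reads in every library. Col2a1, the main cartilage collagen and a known target of SOX9, was at 3.21, 0.164 and 4.49 CPM in W4, W5 and W6 and 0.952, 33.9 and 36.3 CPM in K1, K2 and K3. It was thus high in K2 and K3 alone and did not pass (3.18 ± 1.45, edgeR adjusted p = 0.151), and K1, inside the wild-type range, gave -1.45 on its own (0.493). It passed in DESeq2 (3.17, adjusted p = 0.0311) and without K1 (3.76, edgeR adjusted p = 0.00292, with 66.2% of genes called). Col11a1, a fibrillar collagen of cartilage, rose (3.0 ± 0.72, 0.0292), from 5.71, 8.72 and 7.41 CPM to 12.3, 80.3 and 82.7 CPM. Its call ended in limma-voom (adjusted p = 0.123), with the term for the number after p (0.0895), with any 1 library other than K1 left out (edgeR adjusted p of 0.0835 to 0.116) and for K1 alone (0.76, 0.0681). Fgfr3, a growth factor receptor of the growth plate, rose (1.19 ± 0.31, 0.0388), a call that ended with scaling by total counts (0.0588) and with any 1 library other than K1 left out (edgeR adjusted p of 0.0687 to 0.143). Prg4, lubricin, made by joint surfaces and mesothelium, fell from 1517, 1432 and 1262 CPM to 89.3, 7.35 and 5.64 CPM (-5.36 ± 1.24, 0.0265). Its call ended with any 1 library other than K1 left out (edgeR adjusted p of 0.0571 to 0.0832), and without K1 the value was -7.76. The part of the mesothelial markers in the fall of Prg4 was not tested.

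Among 18 genes of the RANK system and osteoclasts 13 were tested, and 3 rose and 1 fell (30.8%, median 0.32). Csf1, the growth factor of the osteoclast lineage, rose from 430, 330 and 458 CPM to 672, 589 and 578 CPM (0.59 ± 0.15, 0.0313). Its call ended with scaling by total counts (0.0675), with the term for the number after p (0.0541) and with any 1 library other than K1 left out (edgeR adjusted p of 0.0613 to 0.0978). Nfatc1 (2.39 ± 0.47, 0.0163) and the chloride transporter gene Clcn7 (0.50 ± 0.09, 0.0127) rose, and the fall was that of Tnfsf11. The call for Nfatc1 ended in limma-voom (adjusted p = 0.066) and with any 1 library other than K1 left out (edgeR adjusted p of 0.0553 to 0.0778), that for Clcn7 without K2, K3, W4 or W6 (0.0513 to 0.0652), and that for Tnfsf11 without W4 (0.0636). Of 8 osteoclast markers 4 were tested, with edgeR adjusted p of 0.0664 to 0.802. Itgb3 and Ctsk led them, the first at 45, 44 and 45.8 CPM in W4, W5 and W6 and 5.76, 27.9 and 28.5 CPM in K1, K2 and K3, and Dcstamp and Calcr had 0 reads. Of 20 RUNX cofactors 19 were tested, and 5 rose and 1 fell (31.6%, median 0.26). Runx1t1 (2.07 ± 0.22, 0.00299), Wwtr1 (1.02 ± 0.19, 0.0135), which encodes TAZ, and Ets1 (1.0 ± 0.19, 0.0144) rose, and Cebpb fell (-0.86 ± 0.18, 0.0188). The calls for Wwtr1, Ets1 and Cebpb ended when single libraries other than K1 were left out (edgeR adjusted p of 0.0501 to 0.0724), and that for Runx1t1 did not.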

How the data were processed

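RNA was measured in 6 libraries, 3 per genotype, prepared by a stranded poly(A) kit (1 ug RNA input, per the labels' protocols). The authors deposited whole-number read counts per gene and library (exon, unique exon, exon junction and intron reads) with gene coordinates and exon lengths, on the GRCm38 build (mm10; per the submitters' processing notes). Which aligner and counter were used, and whether strand was used, is not given in the sources used here. The coordinates of all 10 genes equal those of GENCODE M21. Total exon read counts of 25683 genes entered edgeR 4.0.16 (R 4.3.3): filterByExpr (minimum count 10), TMM scaling, a quasi-likelihood F test on genotype alone, Benjamini-Hochberg adjustment at 0.05. The SE was derived from the log2 fold change and F (their size over the root of F). CPM use TMM-scaled library sizes, log2 CPM a prior count of 2. Alternatives were DESeq2 1.42.0 size factors and test, total counts, other filters, limma-voom (limma 3.58.1), unique reads, title numbers as terms, nearly identical libraries summed, and leaving out each library. Comparing knock-out library 1 alone was added after seeing the data. Genes named beyond the 10 were the largest called rises and falls of each list (up to 3 each, mean of at least 50 reads), 10 fixed genes, nearest profiles, neighbours of called genes, the 2 most abundant markers of each list and those with 0 reads. The 10 genes and all lists were chosen with earlier results of these data known. Plots used matplotlib 3.10.9.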

Additional observations from a re-analysis of the deposited data

How the results depend on the processing

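Counts of calls moved with single libraries. Leaving out 1 library at a time gave 1120 to 8486 genes called (3524 with all), 0 to 8 of the 10 genes (3 with all) and 11 to 62 of the listed related genes (27 with all). The highest counts came without K1 and the lowest for the 10 genes without W4. With the nearly identical libraries summed the counts were 17, 0 and 1, from 2 samples per genotype. Of the 10 genes, 7 were called with the last title number as a replicate block, 5 in DESeq2 and 1 with at least 50 reads in 3 libraries, where Alpl and Phex were not tested. The block added Mgp (-2.86, 0.0254), Msx2 (-5.32, 0.0326), Runx1 (-1.15, 0.0331) and Tnfrsf11b (1.26, 0.0413) to the calls, and Col2a1 (3.10, 0.00141), and called 4510 genes by edgeR. Its number is 1 in K1 and W5, the libraries that stand apart within their genotypes, and 2 in both nearly identical pairs. The genotypes share no replicate number in the labels, which do not say what the title number marks, and the deviations of K1 and W5 correlated at -0.02. Log2 fold changes turned sign for Enpp1 (-0.60 without K1, -0.14 without W5, up to 0.61 with others left out), Epb41l4b (-0.36 without K1, up to 0.97) and Cbfb (-0.00 with total counts), and with K1 alone for Tnfrsf11b (-0.67), Slc20a1 (-0.13), Col2a1 (-1.45) and Ulbp1 (-0.98). The cause was not tested. Alpl rests on 76 reads in all.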
